A study of Homo sapiens with 4 samples.

Results

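The genes described here encode beta and gamma subunits of heterotrimeric G proteins, measured in Raji, a Burkitt lymphoma cell line that carries Epstein-Barr virus. GNB4 was chosen by its measured difference between the clones, a very low signal where DLEU1 was downregulated. GNB1, GNB2, GNB3, GNB5, GNG2, GNG5, GNG7, GNG10 and GNG12 were added by name to ask whether other subunits were higher where GNB4 was lost. They were chosen with earlier results of these data known, so their tests were not made blind to the data. Every probe set that the platform annotation pairs with 1 of these 10 symbols alone was used, which gave 25 of 54613 probe sets, 3 of them for GNB4, and 10 of 19775 genes. RNA was measured on 4 Affymetrix HG-U133 Plus 2.0 arrays. A clone with DLEU1 downregulated by TALENs, engineered proteins that cleave the genome at a designed target, gave 2 arrays, and a wild-type control clone gave the other 2. DLEU1 lies in 13q14 and makes a long RNA that is not translated. Culture was in RPMI with serum for both clones. The label on treatment names the DLEU1 TALENs for all 4 samples alike, so the labels do not settle whether the control clone was also exposed to them, and they give no target site. Each genotype was 1 clone, so clone and genotype cannot be told apart. The labels do not say whether duplicates were separate cultures. The p-values therefore reflect only how far duplicate arrays differed, which may be technical variation.

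A heterotrimeric G protein joins a 7-helix receptor to enzymes and channels inside the cell. The alpha subunit binds GTP when the receptor is activated and separates from the beta-gamma dimer, and both then act on targets such as adenylyl cyclases, phospholipase C beta, phosphoinositide 3-kinase gamma and potassium channels. GNB1 to GNB4 encode closely related propeller-shaped beta subunits. GNB5 is more distant and works mainly with a subfamily of RGS proteins, which speed up GTP hydrolysis. Gamma subunits are small, carry a lipid anchor and hold the dimer at the membrane. In B cells, receptors for chemokines and for sphingosine 1-phosphate signal through such G proteins.

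The arrays were not on a common scale. The trimmed mean intensity was 172 and 197 on the DLEU1-downregulated arrays and 163 and 131 on the control arrays. Bright probe sets were affected most. As deposited, the median log2 difference between the clones was 0.16 over the tested probe sets and 0.35 over the 5462 brightest of all probe sets, against 0.01 and 0.01 after quantile normalization, which gives all arrays the same distribution of values. Intensities below are therefore given as deposited, and log2 changes (DLEU1-downregulated minus control, of log2(value + 16)) after quantile normalization, with the change as deposited beside each. DLEU1 itself read 523.7 and 616.9 on the DLEU1-downregulated arrays, against 1363.4 and 1023.8 on the control arrays, a log2 change of -1.38 ± 0.07 (SE; limma adjusted p = 2.92e-06) and of -1.04 as deposited. The B-cell markers MS4A1, CD79A, CD79B, PAX5 and CD22 read 583.6 or more on every array, as the labelled cell type would have. Their summed intensity was 13544 and 15406 on the DLEU1-downregulated arrays and 14595 and 12271 on the control arrays, and limma called 4 of the 5 lower after quantile normalization but 0 as deposited. Markers of other cells were lower, with single values from 0.4 to 121.2. The 5 T-cell markers summed to 45.2 and 36.7 in the DLEU1-downregulated clone and 60 and 44.4 in the control clone, the 5 myeloid markers to 72.4 and 67.5 against 63.3 and 52.9, and the 5 stromal markers to 167.7 and 114.6 against 193.2 and 202.2. Of the markers of other cells limma called 1 stromal gene, COL1A2, lower (log2 change -1.14, adjusted p = 0.0239, and -1.14 as deposited). The part of these markers in the results below was not tested.

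GNB4 signal was close to lost in the DLEU1-downregulated clone. Its brightest probe set, 225710_at, read 11.9 and 9.3 on the DLEU1-downregulated arrays, against 685.5 and 504.8 on the control arrays. The mean intensity was 10.6 ± 1.84 in the DLEU1-downregulated clone and 595.2 ± 128 in the control clone (SD, n = 2 arrays each), a ratio of 56.1 of control over DLEU1-downregulated. Both DLEU1-downregulated values lay under the median intensity of their arrays, which was 18.7 and 20, so the ratio depends on how background was treated, and no detection calls were used here. The log2 change was -4.65 (-4.51 as deposited), the lowest of 13292 genes represented by their brightest probe set. Since GNB4 was chosen for this difference, these values are a description and carry no test. A second probe set, 223488_s_at, read 7.4 and 9.5 in the DLEU1-downregulated clone and 41.1 and 28.3 in the control clone (log2 change -1.02, and -1.04 as deposited). The third, 223487_x_at, was too dim to be tested, with 5 and 5.2 in the DLEU1-downregulated clone and 9.9 and 10 in the control clone. In all 3 the groups did not overlap and the DLEU1-downregulated arrays were lower, but the probe sets share 1 gene and are not independent. That gene was chosen for this difference, and the share of all probe sets without overlap was not computed. In RNA from whole cultures, fewer cells with GNB4 and less GNB4 RNA per cell cannot be told apart.

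**Figure D1:**
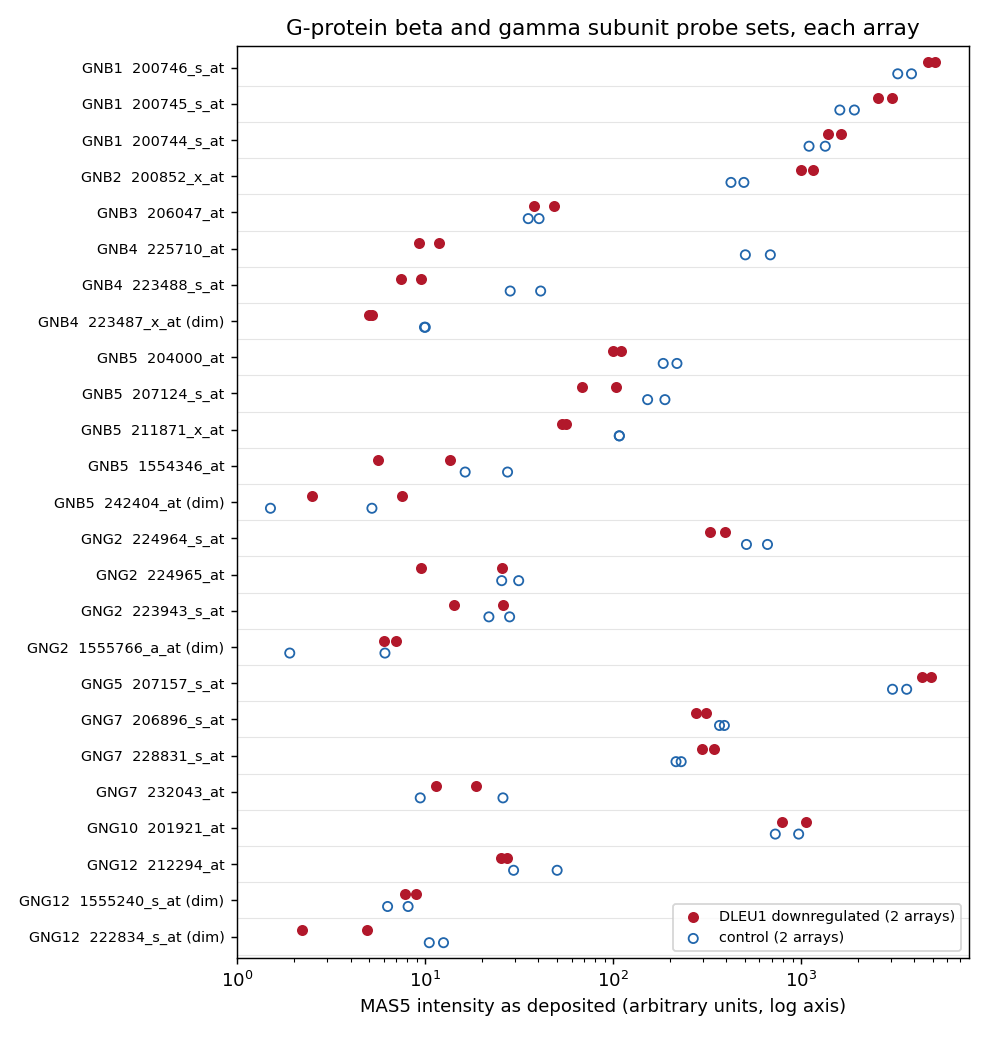
MAS5 intensity as deposited (log axis) for each of the 25 probe sets, with the 2 DLEU1-downregulated arrays as filled points above the 2 control arrays as open points. GNB4 225710_at is the widest gap, with 11.9 and 9.3 against 685.5 and 504.8. On the DLEU1-downregulated arrays GNB2, the 3 GNB1 probe sets, GNG5 and GNG7 228831_s_at lie higher in these values, which are not normalized between arrays. Lower are 4 of the 5 GNB5 probe sets, the brightest GNG2 probe set, GNG7 206896_s_at, and GNG12 212294_at and 222834_s_at. The dim GNB5 242404_at overlaps, with 2.5 and 7.5 against 5.2 and 1.5.

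Promoter sequences were described as a property of these genes that was not used to choose them. Whether they bear on the differences between the clones was not tested. RefSeq (GRCh38.p14) promoters were matched for 9 of the 10 genes, with 15 start sites in all. The 250 bases before the start are shown for the 3 beta subunit genes with 1 listed start read 5′ to 3′ on the gene's strand, with the GC box GGGCGG or its complement CCGCCC in capitals.
GNB4, chr3:179451471-179451720, minus strand: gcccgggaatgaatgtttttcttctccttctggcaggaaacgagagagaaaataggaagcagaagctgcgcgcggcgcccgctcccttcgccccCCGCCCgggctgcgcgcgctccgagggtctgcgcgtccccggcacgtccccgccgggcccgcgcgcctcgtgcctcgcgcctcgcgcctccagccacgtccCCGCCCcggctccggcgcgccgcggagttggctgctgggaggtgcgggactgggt
GNB2, chr7:100673490-100673739, plus strand: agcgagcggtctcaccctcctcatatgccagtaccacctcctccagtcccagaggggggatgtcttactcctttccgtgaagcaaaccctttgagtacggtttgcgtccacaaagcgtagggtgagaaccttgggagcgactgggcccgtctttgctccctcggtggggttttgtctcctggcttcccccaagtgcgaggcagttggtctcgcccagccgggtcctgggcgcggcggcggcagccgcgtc
GNB1, chr1:1891088-1891337, minus strand: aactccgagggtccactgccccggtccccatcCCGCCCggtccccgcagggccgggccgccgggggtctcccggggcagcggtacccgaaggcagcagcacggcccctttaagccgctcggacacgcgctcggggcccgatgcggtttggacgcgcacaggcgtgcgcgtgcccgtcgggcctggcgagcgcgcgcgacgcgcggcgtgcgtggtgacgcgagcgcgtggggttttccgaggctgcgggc
The GNB4 promoter held 37 CG dinucleotides in 250 bases, more than 96.0% of 35116 promoters of this length, whose median was 11. GNB1 had 42, more than 98.6% of promoters, and GNB2 had 18, more than 63.2%. Over the starts of the other subunit genes this share ran from 0.0% for a GNG2 start to 95.1% for GNG7. The GC box occurred at 2 places in GNB4, at 1 in GNB1 and at 0 in GNB2, and 42.6% of all promoters held at least 1. The letters CCAAT were found on neither strand of these 3 windows, against 32.0% of all promoters that hold them. The letters CACGTG were also absent from the 3, against 6.34% of all promoters. The same held for TGACGTCA, which 1.65% of all promoters hold. Among the gamma genes, GNG7 held the GC box at 7 places. A match says only that the letters are present.

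Among the remaining beta subunits, GNB2 was higher and GNB5 lower in the DLEU1-downregulated clone, while the calls for GNB1 depended on the scaling and GNB3 did not pass. GNB2, a widely expressed beta subunit, has 1 probe set here, 200852_x_at, which read 995.9 and 1157.2 on the DLEU1-downregulated arrays, against 495.7 and 423.2 on the control arrays. Both DLEU1-downregulated arrays were above both control arrays, a separation whose share over all probe sets was not computed. The mean was 1077 ± 114 in the DLEU1-downregulated clone and 459.4 ± 51.3 in the control clone (SD, n = 2 each). GNB2 rose by 0.85 ± 0.07 on the log2 scale (SE; limma adjusted p = 3.58e-05; 95% interval 0.69 to 1.01), and by 1.20 as deposited (limma adjusted p = 2.941e-05). The suffix _x_at marks probes that may also bind related transcripts, so the signal may not be GNB2 alone.

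GNB1, the first of the family and the beta subunit of transducin in rods, was read by 3 bright probe sets. The brightest, 200746_s_at, read 4739.4 and 5171.3 on the DLEU1-downregulated arrays and 3865 and 3266 on the control arrays. Its log2 change was 0.09 (limma adjusted p = 0.154; 95% interval -0.01 to 0.19). This probe set passed as higher as deposited (0.48, limma adjusted p = 0.0419) and after median centring (0.52, limma adjusted p = 4.53e-06). After quantile normalization only 200745_s_at of the 3 passed, with 2559.1 and 3041.5 against 1919.4 and 1606.2 and a rise of 0.29 ± 0.05 (SE; limma adjusted p = 0.00188) and of 0.66 as deposited, a call lost without the intensity trend in the fit (limma adjusted p = 0.0943). The third, 200744_s_at, had a log2 change of -0.05 (limma adjusted p = 0.57, 95% interval -0.17 to 0.08). This turned to 0.30 as deposited (limma adjusted p = 0.361) and to 0.35 after median centring, where it passed as higher (limma adjusted p = 0.0206). All 3 were higher on the DLEU1-downregulated arrays as deposited, by 0.30 to 0.66, set against the median of 0.35 over the brightest probe sets. With quantile normalization the highest upper limit of the 3 intervals was 0.40. These intervals reflect only how far duplicate arrays differed, and they move with the scaling, so they do not bound a rise. After median centring 200745_s_at had 0.71.

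GNB3, known from cone photoreceptors and taste cells, was dim and did not pass. It read 38.1 and 48.7 in the DLEU1-downregulated clone and 40.3 and 35.3 in the control clone, so the groups overlapped. Its log2 change was 0.05 (limma adjusted p = 0.86; 95% interval -0.38 to 0.49) and 0.14 as deposited, and it turned to -0.10 with a common trimmed mean.

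GNB5 fell in 3 of its 4 tested probe sets. The brightest, 204000_at, read 99.9 and 110.6 on the DLEU1-downregulated arrays, against 218.3 and 184.5 on the control arrays, a fall of the mean to 105.2 ± 7.57 in the DLEU1-downregulated clone, against 201.4 ± 23.9 in the control clone (SD, n = 2 each). GNB5 fell by 1.10 ± 0.12 on the log2 scale in this probe set (SE; limma adjusted p = 1.47e-04), with -0.84 as deposited (limma adjusted p = 0.00839). The probe set 207124_s_at read 68.3 and 103.3 against 188.4 and 152.4 and had a log2 change of -1.13 (limma adjusted p = 4.76e-04), and -0.89 as deposited. The probe set 211871_x_at read 53.3 and 56 against 107.8 and 107.7 and passed as lower (95% interval -1.38 to -0.62, limma adjusted p = 0.00166), with -0.81 as deposited. In each of these 3 the groups did not overlap, but they share 1 gene, and the share of all probe sets without overlap was not computed. Full separation of 2 arrays from 2 gives p = 0.333 in an exact two-sided permutation test, so it is only a description. A dimmer probe set, 1554346_at, had a log2 change of -0.52 (limma adjusted p = 0.178; -0.57 as deposited), and 242404_at was too dim to be tested.

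The gamma subunits were led by GNG2, which was lower in the DLEU1-downregulated clone. GNG2 is a common partner of GNB1 in biochemical work. Its brightest probe set, 224964_s_at, read 327.7 and 393.7 on the DLEU1-downregulated arrays, against 662 and 511.6 on the control arrays. These did not overlap, a separation whose share over all probe sets was not computed. GNG2 fell by 1.01 ± 0.08 on the log2 scale (SE; limma adjusted p = 2.39e-05), with -0.67 as deposited (limma adjusted p = 0.0405). The probe sets 224965_at and 223943_s_at read between 9.5 and 31.4 on the 4 arrays and did not pass (log2 changes -0.42 and -0.16, and -0.45 and -0.20 as deposited), and 1555766_a_at was too dim to be tested.

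GNG7, a gamma subunit known from the striatum that is also present in B cells, gave probe sets that disagreed. The probe set 206896_s_at read 276 and 312 in the DLEU1-downregulated clone and 390.3 and 367.8 in the control clone. It fell by 0.67 ± 0.10 (SE; limma adjusted p = 0.00108), but not as deposited (-0.35, limma adjusted p = 0.355). The probe set 228831_s_at went the other way, with 297.9 and 343.7 in the DLEU1-downregulated clone and 229.9 and 215.8 in the control clone, and did not pass (log2 change 0.19, limma adjusted p = 0.218, and 0.49 as deposited), except after median centring (0.54, limma adjusted p = 0.00599). Groups did not overlap in either, a separation whose share over all probe sets was not computed. The dim probe set 232043_at had a log2 change of -0.05 (limma adjusted p = 0.925), and -0.09 as deposited. The difference between the probe sets was not tested.

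GNG5, a broadly expressed gamma subunit, was bright in both clones, with 4375.4 and 4896.3 on the DLEU1-downregulated arrays and 3643.4 and 3063 on the control arrays. Its log2 change was 0.09 (limma adjusted p = 0.145; 95% interval -0.01 to 0.18), and 0.47 as deposited (limma adjusted p = 0.04997). After median centring GNG5 also passed as higher (0.51, limma adjusted p = 8.92e-06). A near copy, GNG5B, may contribute to the signal. GNG10, which has a read-through transcript with DNAJC25, read 792.6 and 1057 in the DLEU1-downregulated clone and 969.8 and 728.5 in the control clone, so the groups overlapped as deposited. GNG10 passed narrowly as lower after quantile normalization (log2 change -0.24, limma adjusted p = 0.0448). It had 0.12 as deposited (limma adjusted p = 0.777) and 0.16 after median centring (0.377). It did not pass with a common trimmed mean (limma adjusted p = 0.101), with dim probe sets kept (0.094) or without a trend (0.205). The GNG10 call was also lost without replicate 1 of the DLEU1-downregulated clone (limma adjusted p = 0.308), without control replicate 1 (0.159) and without control replicate 2 (0.0617). GNG12, a gamma subunit prominent in adherent and glial cells, was dim. Its brightest probe set, 212294_at, read 25.3 and 27.1 in the DLEU1-downregulated clone and 50.3 and 29.5 in the control clone, with a log2 change of -0.41 (limma adjusted p = 0.183; -0.38 as deposited), and its other 2 probe sets were too dim to be tested.

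**Figure D2:**
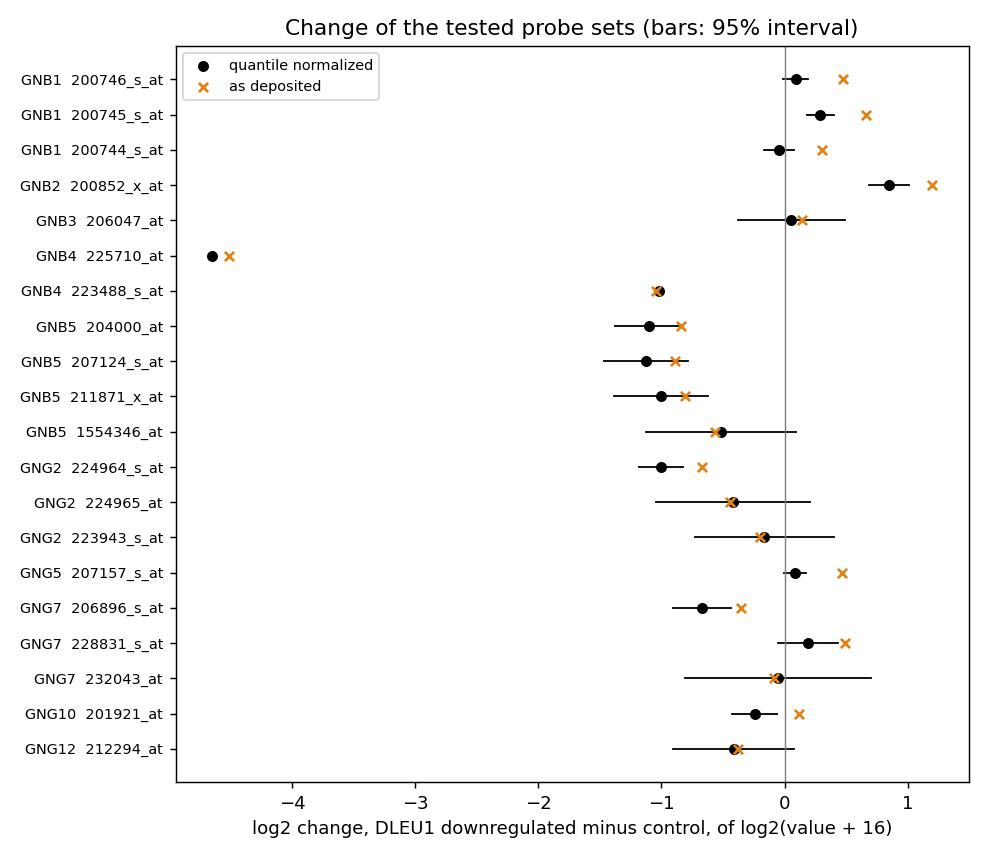
Log2 change (DLEU1-downregulated minus control) of the 20 tested probe sets after quantile normalization (points, with 95% limma intervals except for GNB4, which was chosen for its change) and as deposited (crosses). GNB2 lies at 0.85, 3 GNB5 probe sets and the brightest GNG2 probe set lie lower, down to -1.13, and GNB4 225710_at lies at -4.65.

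Over the 18 tested probe sets of the 9 genes other than GNB4, 2 were called higher (GNB2 and 1 of GNB1), 6 lower (3 of GNB5 and 1 each of GNG2, GNG7 and GNG10) and 10 not called. The filter on dim values had removed 4 others, and 1 of GNB4. Among all 32768 tested probe sets 17.1% were called higher, 16.7% lower and 33.8% either way, and no set test was made. Probe sets of 1 gene are not independent, and GNB5 gave 3 of the 6 falls. By brightest probe set, 1 of the 9 genes was called higher and 4 lower, where 20.6% and 20.6% of all genes were. At unadjusted p under 0.05 in limma, with no limit on fold, 2 of the 18 probe sets were higher and 6 lower. Of the called falls among the 18, 4 were at least 2-fold on the log2(value + 16) scale. Of the called rises 0 were, where 3.14% and 2.58% of all tested probe sets were such falls and rises. This contrast turned round as deposited, where 0 falls and 1 rise (GNB2) reached 2-fold among the calls, beside 2% and 5.48% of all tested probe sets. Median centring also gave 0 falls and 1 rise, and a pseudocount of 64 gave 0 and 0. Leaving out 1 array gave 2 to 3 such falls, with 2 without replicate 1 of the DLEU1-downregulated clone. The median log2 change of the 18 was -0.20, beside 0.01 for all tested probe sets. As deposited, 4 were called higher and 4 lower, where the background shares were 17.2% and 5.11% (22.3% either way). GNB2, the 3 called GNB5 probe sets and GNG2 224964_s_at kept their direction and their call under all 13 alternative settings tried. With 2 arrays a group, an exact two-sided permutation test of a single probe set cannot go below p = 0.333.

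Partners of the beta-gamma dimer were taken from 7 lists with 77 genes, of which 73 had a probe set with 1 symbol and 47 were bright enough to test. Each stands by its brightest tested probe set, and other probe sets are not given one by one. FNTA, PGGT1B, PIK3CG and GNA13 had 3 tested probe sets each. GNA12, ADCY3, ADCY7, PIK3CB, CCT5, CCT8, ICMT and RIC8B had 2 each. Of the 47, 12 were higher and 6 lower in the DLEU1-downregulated clone, or 25.5% and 12.8%, where 20.6% and 20.6% of all 13292 genes were called (41.2% either way). Averaging all tested probe sets of a gene gave 10 higher and 2 lower. Most of the 6 falls by brightest probe set were thus not called when averaged, and which ones is not given here. By brightest probe set as deposited, 11 rose and 1 fell (background 20.3% and 5.74%). The counts fell to 5 higher without replicate 1 of the DLEU1-downregulated clone and to 7 higher and 3 lower without its replicate 2.

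Of 9 tested alpha subunits 3 rose and 1 fell (median 0.11, beside -0.01 for all genes), where 20.6% and 20.6% of all genes did. GNA12, which couples receptors to RhoA, read 1019.7 and 1392.5 on the DLEU1-downregulated arrays, against 384 and 326.7 on the control arrays, and rose by 1.36 (limma adjusted p = 1.28e-05), and by 1.71 as deposited. GNAI2, the main inhibitory alpha subunit of lymphocytes, read 358.4 and 401.3 in the DLEU1-downregulated clone and 246.6 and 207.9 in the control clone and rose by 0.39 (limma adjusted p = 0.011) and by 0.70 as deposited. The GNAI2 call was lost without replicate 1 (limma adjusted p = 0.0939) or replicate 2 (0.0622) of the DLEU1-downregulated clone, and without a trend (0.0557). GNAS, the stimulatory alpha subunit, rose by 0.26 in the brightest of its 11 tested probe sets (limma adjusted p = 0.00119), and by 0.52 as deposited. The GNAS call was lost with a common trimmed mean (0.20, limma adjusted p = 0.105) and without a trend (limma adjusted p = 0.128). GNA13, the relative of GNA12 and the subunit that fell, was named after its value was seen; it had a log2 change of -0.13 (limma adjusted p = 0.0464), and 0.24 as deposited (limma adjusted p = 0.394).

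Among the enzymes that modify gamma subunits with lipid, 2 of 5 fell and 1 rose (median -0.18), where 20.6% and 20.6% of all genes did. As deposited 1 fell and 0 rose, where 5.74% and 20.3% of all genes did. FNTA, the alpha subunit shared by both protein prenyltransferases, read 1895.7 and 2065.4 on the DLEU1-downregulated arrays, against 3907.2 and 3319 on the control arrays. The groups were well apart, and FNTA fell by 1.24 (limma adjusted p = 1.06e-06), with -0.86 as deposited (limma adjusted p = 3.04e-04). PGGT1B, the beta subunit of the prenyltransferase that acts on most gamma subunits, read 140.1 and 156.6 against 223.8 and 151.5, overlapping as deposited, and fell by 0.56 (limma adjusted p = 0.00795). As deposited PGGT1B did not pass (-0.29, limma adjusted p = 0.468), and its call was lost without replicate 2 of the DLEU1-downregulated clone (limma adjusted p = 0.0557). ICMT, which methylates the lipid-modified end, rose by 0.19 (limma adjusted p = 0.0412), and had 0.54 as deposited, where it did not pass (limma adjusted p = 0.0812). ICMT also no longer passed when dim probe sets were kept (0.0668), without a trend (0.216), without control replicate 1 (0.133) and without replicate 1 (0.201) or 2 (0.133) of the DLEU1-downregulated clone.

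The folding list holds the CCT chaperonin that folds beta subunits, its co-chaperone PDCL and the alpha chaperone RIC8B. In it 4 of 9 rose and 2 fell (median 0.12), where 20.6% and 20.6% of all genes did. As deposited 5 rose and 0 fell, where 20.3% and 5.74% of all genes did. These 5 were CCT genes with 0.43 to 0.65 as deposited, set against a median of 0.35 over the brightest probe sets. The chaperonin subunits CCT5 (0.28, and 0.65 as deposited) and CCT3 (0.19, and 0.54 as deposited) rose (limma adjusted p = 0.00377 and 0.00668). Both calls were lost without a trend (limma adjusted p = 0.126 and 0.205), and that of CCT3 without replicate 1 of the DLEU1-downregulated clone (0.0643). CCT8 fell by 0.19 (limma adjusted p = 0.00353), but had 0.13 as deposited, and its call was lost with a common trimmed mean (limma adjusted p = 0.0655) and without a trend (0.2). RIC8B, named after its value was seen, fell by 0.74 (limma adjusted p = 0.00711), with 52.7 and 55.3 in the DLEU1-downregulated clone and 103.7 and 73.6 in the control clone. As deposited RIC8B did not pass (-0.57, limma adjusted p = 0.0934).

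Of 15 tested effectors of the dimer 4 rose and 1 fell (median 0.12), where 20.6% and 20.6% of all genes did. ADCY3, an adenylyl cyclase, read 350.7 and 408.3 on the DLEU1-downregulated arrays, against 164.4 and 127.8 on the control arrays, and rose by 0.997 (limma adjusted p = 9.14e-05), and by 1.29 as deposited. ADCY7, the cyclase that beta-gamma stimulates in blood cells, was named after its value was seen and rose by 0.94 (limma adjusted p = 0.00286), and by 1.07 as deposited. PIK3CB, a phosphoinositide 3-kinase that beta-gamma can activate, rose by 0.45 (limma adjusted p = 0.00232) and by 0.78 as deposited, with 525.7 and 596.4 in the DLEU1-downregulated clone and 355 and 285.2 in the control clone. PIK3CG, the classical beta-gamma-activated kinase of leukocytes, fell by 0.40 (limma adjusted p = 0.00247), but had -0.06 as deposited (limma adjusted p = 0.904). In limma's fit, 0 of 4 other gamma subunits, 0 of 4 genes of beta-gamma degradation and 0 of 1 tested RGS partner of GNB5 were called. At unadjusted p under 0.05 these counts were 0, 1 and 0. The other 5 genes of the RGS list were too dim to be tested.

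**Figure D3:**
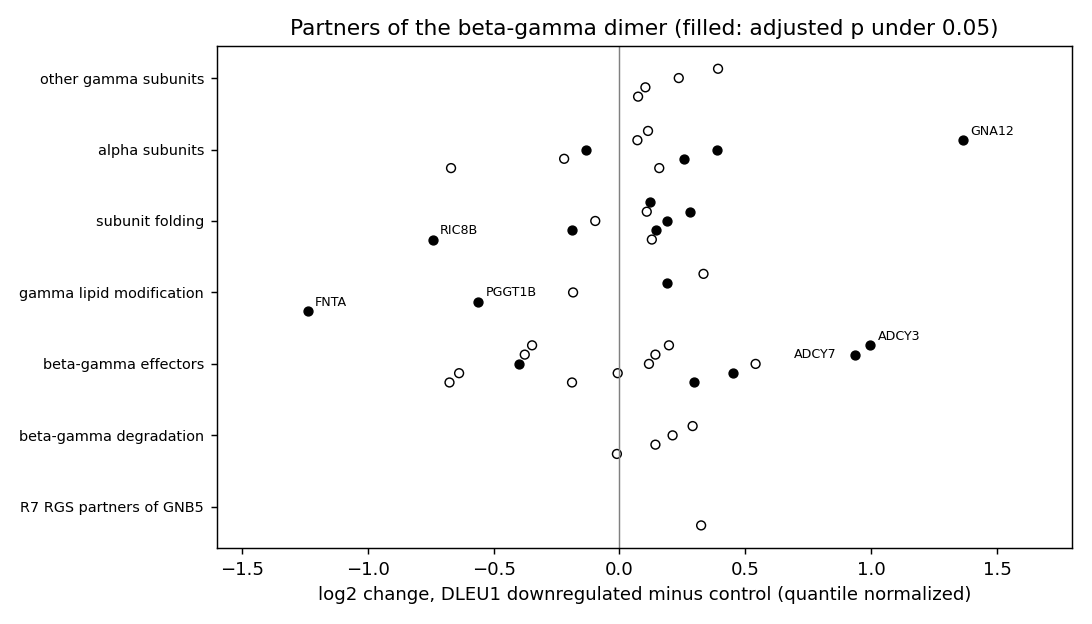
Log2 change (DLEU1-downregulated minus control, quantile normalized) of the 47 tested partner genes by list, filled where the limma adjusted p was under 0.05. GNA12 at 1.36 and FNTA at -1.24 lie farthest from 0.

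Genes beside GNB4 on chromosome 3 did not share its loss. In RefSeq order the 6 measured genes on either side were taken, of which 8 of 12 were bright enough to test. Their log2 changes ranged from -0.39 to 0.53, with a median of -0.12. ACTL6A, a chromatin remodelling subunit next to GNB4, read 678.4 and 803.9 on the DLEU1-downregulated arrays and 821.7 and 592.8 on the control arrays, and had a log2 change of -0.28 (limma adjusted p = 0.0208), which turned to 0.08 as deposited. The ACTL6A call was lost without replicate 1 (0.126) or 2 (0.0809) of the DLEU1-downregulated clone, without control replicate 1 (0.0899) and without a trend (0.133). MFN1, of mitochondrial fusion, on the other side, read 898.2 and 923.6 in the DLEU1-downregulated clone and 859.8 and 853.2 in the control clone (log2 change -0.27, limma adjusted p = 0.0623, and 0.09 as deposited). Without control replicate 1 MFN1 passed as lower (-0.41, limma adjusted p = 0.0112). MRPL47, a mitochondrial ribosomal protein, had a log2 change of 0.07 (limma adjusted p = 0.25), and 0.45 as deposited. It passed as higher after median centring (0.49, limma adjusted p = 1.6e-05). NDUFB5, a complex I subunit, fell by 0.39 (limma adjusted p = 1.51e-04), but did not pass as deposited (-0.03, limma adjusted p = 0.941) or without a trend (0.0513). ZMAT3, a p53-regulated RNA-binding protein, rose by 0.53 (limma adjusted p = 1.94e-04), and by 0.89 as deposited. ZNF639 rose by 0.29 (limma adjusted p = 0.0347), and by 0.66 as deposited. ZNF639 no longer passed when dim probe sets were kept (limma adjusted p = 0.0895), without a trend (0.189), without control replicate 2 (0.175) and without replicate 2 of the DLEU1-downregulated clone (0.252). KCNMB3, a potassium channel subunit, was too dim to be tested. In all, 2 of the 8 rose and 2 fell after quantile normalization, with 2 and 0 as deposited by limma (3 and 0 at unadjusted p under 0.05). Over all genes 20.6% were called higher and 20.6% lower, and 20.3% and 5.74% as deposited.

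**Figure D4:**
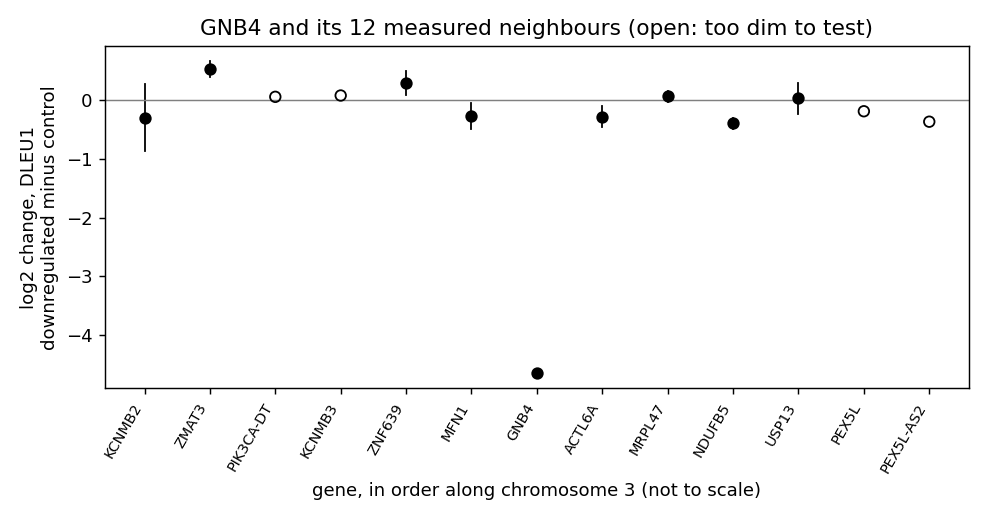
Log2 change (DLEU1-downregulated minus control, quantile normalized) of GNB4 and its 12 measured neighbours in order along chromosome 3, with 95% limma intervals for tested neighbours and open points for those too dim to test. The neighbours lie between -0.39 and 0.53 and GNB4 at -4.65.

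The genes whose pattern over the 4 arrays was closest to that of GNB4 were found by the distance between profiles of log2 values centred on each gene's mean. The closest was GPR18, a G-protein-coupled receptor, at a distance of 0.56, with 18.8 and 20.7 on the DLEU1-downregulated arrays, against 590 and 489.4 on the control arrays. SETBP1, a SET-binding nuclear protein (distance 0.71), read 3.4 and 1.2 against 270.9 and 210.4. S100A10, a partner of annexin A2 (0.98), GJC1, a gap junction connexin (1.08), and GATM, of creatine synthesis (1.12), followed. All 5 were low on both DLEU1-downregulated arrays and high on both control arrays, and the same 5 genes were the closest with the values as deposited. With 4 arrays this measure mainly follows the size of the difference between the clones.

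**Figure D5:**
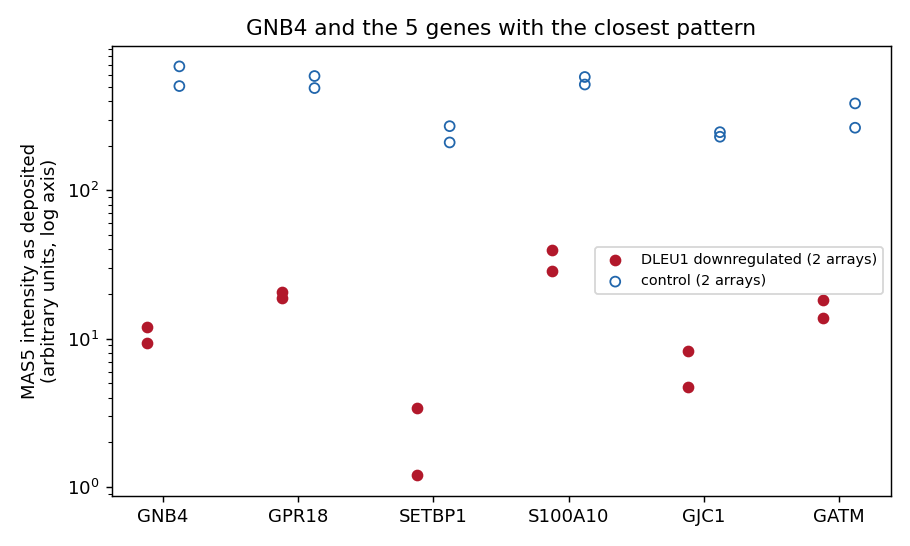
MAS5 intensity as deposited (log axis) of GNB4 225710_at and the 5 genes with the closest pattern, with the DLEU1-downregulated arrays as filled points left of the control arrays as open points. In all 6 genes both DLEU1-downregulated arrays lie well below both control arrays.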

How the data were processed

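The authors deposited 1 table of linear signal intensity for 54613 probe sets and 62 control probe sets on 4 arrays. Per the submitters' processing notes the intensities were made with MAS5, and its version, target and detection calls are not given in the sources used here. Both members and gene lists were chosen with earlier results of these data known.

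Control probe sets were left out, intensities were quantile normalized, log2(value + 16) was taken, and 21845 probe sets with a mean below the 40th percentile were not tested, which left 32768. The group difference was fitted with limma 3.58.1 in R 4.3.3 (lmFit, eBayes with trend; Benjamini-Hochberg adjustment over all tested probe sets, threshold 0.05), and the fit was tested on simulated data. The number of arrays limits the precision. The platform annotation named 41091 probe sets with 1 symbol, left 11721 unnamed and gave more than 1 symbol to 1801. The gene identifier matched 41037 to RefSeq (GRCh38.p14) symbols. In lists a gene stands by its brightest tested probe set. Lists held alpha subunits, other gamma subunits, folding, lipid modification, effectors, degradation, RGS partners and cell markers. Named genes were all members, DLEU1, up to 3 called genes per list with the smallest p, called or near neighbours of GNB4, and the 5 closest patterns. Protein sequences were not analysed here. Alternatives were other scalings, pseudocounts, filters, no trend, a replicate block, averaging all tested probe sets of a gene, and leaving out each array.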

Additional observations from a re-analysis of the deposited data

How the results depend on the processing

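As deposited the prior degrees of freedom were infinite, so probe sets of like brightness shared 1 spread. In this order, probe sets called higher and lower numbered 5588 and 5485 with quantile normalization, 5620 and 1673 as deposited, 10420 and 2482 after median centring and 3576 and 3580 without a trend, and leaving out 1 array gave 3356 to 5310 and 3654 to 4768. Subunit probe sets called higher numbered 2, against 4 as deposited, 6 after median centring and 1 without a trend. Leaving out 1 array gave 2 higher and 5 to 6 lower. Partner genes called higher numbered 12, against 25 after median centring and 4 without a trend (5 to 10 without 1 array), and those called lower 6, against 1 as deposited, 2 after median centring and 2 when all tested probe sets of a gene were averaged (3 to 7 without 1 array). Neighbours of GNB4 called higher numbered 2, against 4 after median centring, 1 with no filter on dim probe sets and 1 without a trend (1 to 2 without 1 array). Those called lower numbered 2, against 0 in limma's fit as deposited, after median centring and without a trend (0, 0 and 1 at unadjusted p under 0.05; 1 to 2 without 1 array). Signs turned as deposited and after median centring for GNB1 200744_s_at (0.30 and 0.35), GNG10 (0.12 and 0.16), CCT8 (0.13 and 0.18), MFN1 (0.087 and 0.13) and ACTL6A (0.079 and 0.12), and after median centring for NDUFB5 (0.016). GNB3 turned to -0.10 with a common trimmed mean. Leaving out 1 array gave -0.0056 to 0.11 for GNB3, -0.41 to 0.078 for GNG2 223943_s_at and -0.52 to 0.42 for GNG7 232043_at. The log2 change of GNB4 225710_at was -5.46 with a pseudocount of 4 and -3.29 with 64. The cause of these shifts was not tested. Same-numbered arrays did not deviate together (correlation -0.01), and with the replicate block 5658 probe sets were higher and 5527 lower, and the subunit counts were 2 and 6, those of partner genes 10 and 5 and those of neighbours 2 and 3. Leaving out an array leaves 1 in its group, which is assumed to vary like the other group. No depth is known for arrays; dim probe sets near the array medians limit GNB3, GNG12 and the low GNB4 values.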
